A study of Mus musculus with 8 samples.

Results

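Transcripts of 10 ETS transcription factors were followed in the caput epididymis, the head of the duct in which sperm mature, of mice without Nell2. The 10 genes were Etv1, Etv4 and Etv5 of the PEA3 subfamily, the further ETS genes Ets1, Ets2, Etv6 and Elk3, and the epithelial ETS genes Elf3, Elf5 and Ehf. They were taken by gene symbol from a table of read counts for 24059 symbols, in which all 10 were present, and 16 other ETS family genes in the table served for comparison. The Nell2-KO group (genotype Nell2-/-) and the wild-type (WT) group each held 4 libraries of whole caput from mice of strain C57BL/6N at 14 weeks of age. The labels number the replicates without naming the animals behind them, so the p-values cover spread among libraries that may in part be technical.

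NELL2 is a glycoprotein that germ cells of the testis secrete into the lumen. It reaches the initial segment, where the duct begins, and acts there through the receptor tyrosine kinase ROS1. ETS factors bind DNA with a shared winged helix domain that reads the letters GGAA. Many of them are phosphorylated by the kinase ERK, which receptor tyrosine kinases activate, and transcription of the PEA3 genes is itself kept up by ERK signalling in many tissues. In the mouse initial segment, Etv4 and Etv5 are known to depend on factors that arrive from the testis.

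Library totals ran from 801112 to 6256204 counts in Nell2-KO and from 2073811 to 2517387 in WT. Nell2 itself had 0 reads in each of the 8 libraries, so that it did not check the genotype labels in this tissue. Levels below are CPM, read counts scaled to library size with TMM factors, given as mean ± SD with n = 4 per genotype, and fold changes are those of edgeR's quasi-likelihood test, Nell2-KO over WT. A gene is said to have risen or fallen where its p, adjusted by Benjamini-Hochberg over the 11062 genes tested, was under 0.05. Nell2-KO replicate 1, the shallowest library, stood apart: relative to a WT mean of 1, its share of reads falling in genes was 0.496, while the other 3 Nell2-KO libraries had 1.02 to 1.03. WT replicate 2 also stood apart, less far: its share was the lowest in WT, where the other 3 libraries had 1.032 to 1.035. Pairs of WT libraries differed by a chi-square per degree of freedom of 7.23 to 9.45 where WT replicate 2 was included. The other WT pairs had 1.27 to 1.99. Results that rest on Nell2-KO replicate 1 are given with and without it.

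Of the 10 ETS genes, Etv1, Etv4, Etv5 and Ets1 fell and Elf5 and Ehf rose in Nell2-KO, while Etv6, Ets2, Elf3 and Elk3 did not pass the test. These 6 calls compare with 15.0% of all genes tested that were called in either direction. Over all genes, 8.71% were called lower and 6.24% higher. All 10 genes were tested, but Etv4 met the edgeR filter on low counts through the WT libraries alone, and Etv5 through these and 1 Nell2-KO library. The count is therefore a description of these genes. Without Nell2-KO replicate 1, 5 of the 10 fell and 3 rose, with Etv6 and Elf3 added, while 24.7% of the 11279 genes then tested were called, 13.2% lower and 11.5% higher. The values of the 2 genotypes did not overlap for Etv1, Etv4, Etv5, Elf5 and Ehf, which was also the case for 22.1% of all genes tested.

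**Figure D1:**
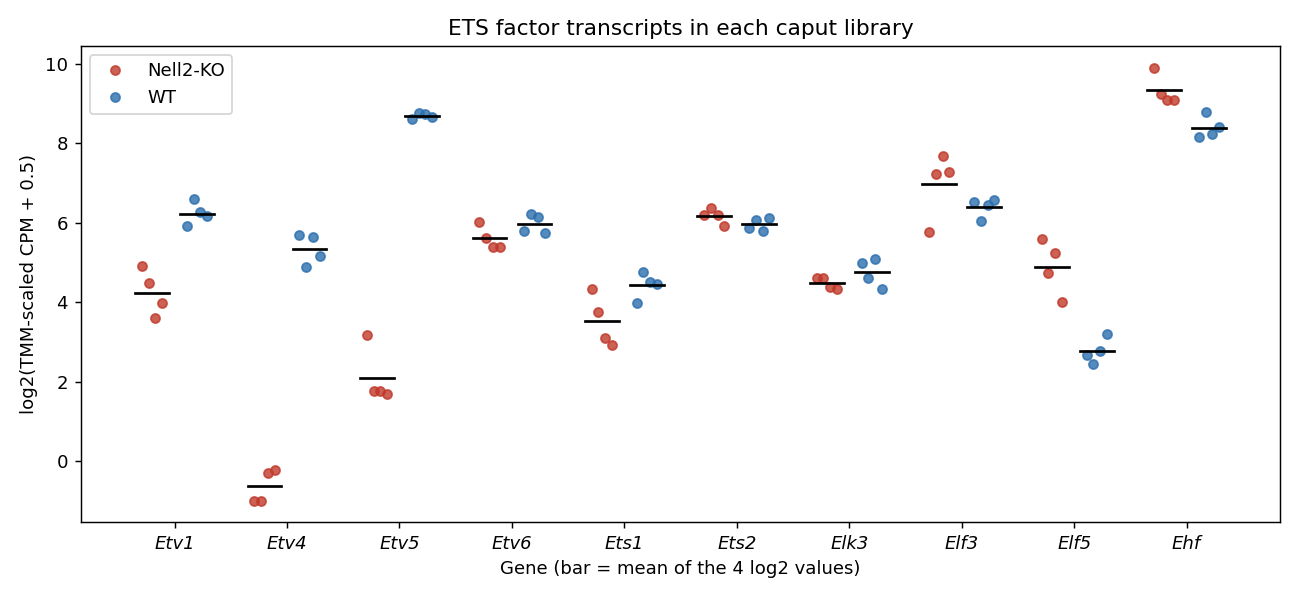
Level of each of the 10 ETS genes in every library, as log2 of TMM-scaled CPM plus a pseudocount of 0.5; each point is 1 library, red for Nell2-KO and blue for WT, and bars are the means of the 4 log2 values. The red and blue points are separate for Etv1, Etv4, Etv5, Elf5 and Ehf and overlap for the other 5 genes.

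Etv5, the PEA3 gene with the highest WT level per transcript length, was nearly lost in Nell2-KO. It had 6, 4, 19 and 15 reads in Nell2-KO replicates 1 to 4, against 993, 882, 879 and 887 reads in WT replicates 1 to 4. Scaled for depth, these were 8.45, 2.91, 2.89 and 2.69 CPM in Nell2-KO, against 389, 432, 428 and 405 CPM in WT. Nell2-KO replicate 1 lay above the other 3 knockout libraries and was still far below every WT library. The mean was 4.24 ± 2.81 CPM in Nell2-KO and 413 ± 20.2 CPM in WT, and the log2 fold change was -6.97 ± 0.25 (SE, edgeR adjusted p = 6.89e-09). Etv5 encodes an activator of transcription that is also needed by the stem cells of the testis.

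Etv4, the founding member after which the PEA3 subfamily is named, was close to the limit of detection in Nell2-KO. It had 0, 0, 2 and 2 reads in Nell2-KO replicates 1 to 4, against 131, 59, 101 and 78 reads in WT replicates 1 to 4. With 0 reads counted, up to 3 remain possible by counting error alone, or 4.23 CPM in Nell2-KO replicate 1 and 2.18 CPM in Nell2-KO replicate 2. The 2 deep Nell2-KO libraries held 0.305 and 0.359 CPM, against 28.9 to 51.3 CPM in WT. The fitted log2 fold change was -7.00 ± 0.40 (SE, edgeR adjusted p = 1.88e-07), and its size rests on the 4 knockout reads. By size of fall, Etv4 stood at place 34 and Etv5 at place 36 of the 11062 genes tested.

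Etv1 also fell, with a smaller fitted change than Etv4 and Etv5. It had 29.6, 21.8, 11.6 and 15.3 CPM in Nell2-KO replicates 1 to 4, against 59.5, 96.5, 76.4 and 71.2 CPM in WT replicates 1 to 4. The highest Nell2-KO library was below the lowest WT library. The fall was 4.43-fold, a log2 fold change of -2.15 with an SE of 0.26 (edgeR adjusted p = 0.000127). Etv1 encodes the third PEA3 factor, known for its part in the identity of interstitial cells of Cajal and of some neurons.

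Whether the 3 genes fell by different amounts was tested on their ratio within each library. The log2 ratio of Etv5 to Etv1 averaged -2.15 ± 0.45 in Nell2-KO and 2.46 ± 0.22 in WT. The log2 ratio of Etv4 to Etv1 averaged -4.87 ± 0.97 in Nell2-KO and -0.89 ± 0.64 in WT. For both pairs a 2-sided exact permutation test over the 70 assignments of libraries gave p = 0.0286, the smallest it can give, and 0.05 after adjustment over the 7 pairs of ETS genes compared. That adjusted value is at the threshold and not under it. The log2 ratio of Etv5 to Etv4 averaged 2.73 ± 1.03 in Nell2-KO and 3.35 ± 0.43 in WT (exact permutation p = 0.314, adjusted p = 0.367), and its sign of difference turned with the pseudocount, as 4 reads of Etv4 set it. Without Nell2-KO replicate 1 all 3 ratios had an adjusted exact permutation p of 0.0333. For Etv5 to Etv4 the difference was then -1.10, in place of -0.62 with all libraries, so that 1 library decided whether this ratio passed the test. The adjusted values are coarse, as there are few assignments and they depend on how many pairs reach the smallest p. As the pseudocount sets the knockout values of Etv4, no difference in fall between Etv5 and Etv4 is read from this.

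**Figure D2:**
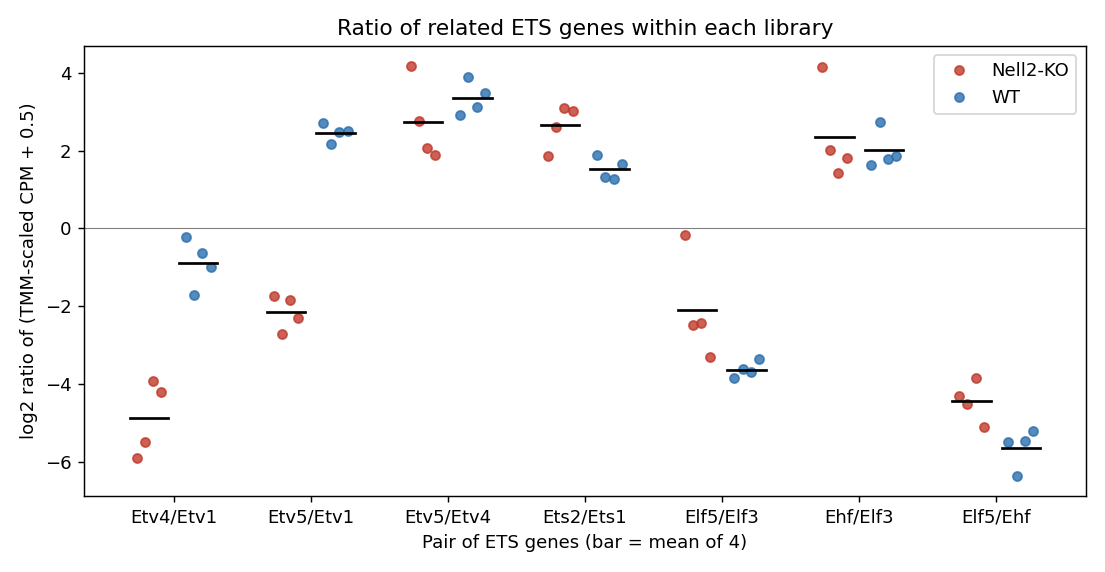
Log2 ratio of 2 related ETS genes in each library, from TMM-scaled CPM plus 0.5, for the 7 pairs tested; points are libraries, red for Nell2-KO and blue for WT, and bars are means of 4. The ratios Etv4/Etv1 and Etv5/Etv1 lie lower in every Nell2-KO library than in any WT library, and Elf5/Elf3 and Elf5/Ehf lie higher.

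The PEA3 genes lie on different chromosomes of mm10. Etv5 (ENSMUSG00000013089.15) lies on the minus strand of chromosome 16 at 22381309 to 22439719, Etv4 (ENSMUSG00000017724.14) on the minus strand of chromosome 11 at 101769742 to 101785371, and Etv1 (ENSMUSG00000004151.17) on the plus strand of chromosome 12 at 38779380 to 38870484. No other GENCODE M21 gene overlaps any of the 3. Of the distinct 36-base words in their transcripts, none was shared with another of the 10 genes, so that reads of 1 ETS gene could not be counted for another by an exact match. With all other annotated transcripts, 28.7% of the words of Etv5 and 9.76% of those of Etv1 were shared, against 0% for Etv4. All the words shared by Etv5 lie in Gm4798, a processed pseudogene on chromosome 10, and Gm5454, a processed pseudogene on chromosome 13, shared the most with Etv1. Neither pseudogene is a row of the table analysed, and the labels do not state how reads that fit both places were counted.

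Promoter sequences were compared because Etv1 and Etv5 fell together. RefSeq start sites on GRCm38.p6, each with 250 bases before and 50 bases from the start on, were at hand for 7 of the 10 genes and not for Etv4, Ets1 and Ehf. Etv1 and Etv5 each had 2 start sites. The first motif searched was GGAAGT, a form of the ETS site. The second was CCGGAA, also a form of the ETS site that can overlap the first in a longer site but did not here. The third was TGAATG, which is only a part of the longer site of Capicua (Cic). Capicua is a repressor that ERK removes from DNA and that is known to hold down PEA3 genes. These motifs were chosen after the sequences had been read, and both strands were searched. Below, capitals mark the matches in the promoters of Etv1 at chr12:38779832-38780131 (plus strand) and of Etv5 at chr16:22438319-22438618 (minus strand), each written 5′ to 3′ along the gene.
Etv1: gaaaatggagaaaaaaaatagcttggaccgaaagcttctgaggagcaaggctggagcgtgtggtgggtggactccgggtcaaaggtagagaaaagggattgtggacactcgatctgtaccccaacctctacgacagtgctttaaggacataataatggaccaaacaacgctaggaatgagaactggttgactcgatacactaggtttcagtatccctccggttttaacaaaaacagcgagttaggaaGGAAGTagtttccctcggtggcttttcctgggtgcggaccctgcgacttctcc
Etv5: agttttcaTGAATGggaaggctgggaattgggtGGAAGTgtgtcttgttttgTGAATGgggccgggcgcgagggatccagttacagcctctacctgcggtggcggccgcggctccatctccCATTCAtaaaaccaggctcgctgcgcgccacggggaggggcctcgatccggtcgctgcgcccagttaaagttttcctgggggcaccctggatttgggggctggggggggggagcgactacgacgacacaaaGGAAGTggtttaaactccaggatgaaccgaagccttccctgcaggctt

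The Etv1 promoter held GGAAGT once, starting 3 bases before the start site. The Etv5 promoter held GGAAGT at 217 bases before the start and at base 3 after it, and TGAATG at 242, 198 and 129 bases before the start, the last of these on the opposite strand (CATTCA). Of the 32851 promoter entries, 23.8% held the motif GGAAGT, while 14.9% held the motif CCGGAA. The motif TGAATG was found in 12.7%, and 3 or more copies of it in 0.17%. The limit of 3 copies is the number seen in this Etv5 promoter. The 0.17% is therefore a description and does not measure how unusual the promoter is. The other start site of Etv1 and that of Etv5 held none of the 3, nor did the entries of Elf3, Elf5, Etv6, Elk3 and Ets2. In all 3 copies of TGAATG in the Etv5 promoter, the letters that follow on the strand of the motif are GG. The full, longer site of Capicua was not searched for, so that these copies are not counted as Capicua sites. A match is a string of letters and was not tested as a binding site.

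Of the epithelial ETS genes, Elf5 and Ehf rose and Elf3 did not pass the test. Elf5, known from the trophoblast and from milk-producing mammary epithelium, had 47.9, 26.2, 37.3 and 15.4 CPM in Nell2-KO replicates 1 to 4, against 5.87, 4.90, 6.32 and 8.67 CPM in WT replicates 1 to 4. The lowest Nell2-KO library was above the highest WT library, although the WT values rest on 10 to 19 reads each. Elf5 rose 4.58-fold, a log2 fold change of 2.19 with an SE of 0.36 (edgeR adjusted p = 0.00121).

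Ehf, an ETS factor of glandular and barrier epithelia, had the highest level per transcript length of the 10 genes in Nell2-KO. Its depth-scaled values were 962, 607, 546 and 545 CPM in Nell2-KO replicates 1 to 4, against 284, 441, 302 and 340 CPM in WT replicates 1 to 4. The 3 Nell2-KO libraries other than replicate 1 lay close together, and all 4 were above WT. Ehf rose 1.94-fold, by 0.96 ± 0.21 on the log2 scale (SE, edgeR adjusted p = 0.00945), and by 0.74 without Nell2-KO replicate 1. The call ended in limma on the authors' RPKM values, which were not rescaled between libraries (log2 fold change 0.72, adjusted p = 0.1401). In that fit the median of all genes lay at -0.20, so that Ehf stood 0.91 above it.

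Elf3, known for its induction in inflamed epithelia, did not pass the test, and 1 library decided this. It had 53.5, 149, 205 and 156 CPM in Nell2-KO replicates 1 to 4, against 90.8, 65.6, 87.5 and 94.0 CPM in WT replicates 1 to 4. Nell2-KO replicate 1 was below every WT library and the other 3 were above every WT library. The log2 fold change was 0.78 ± 0.29 (SE, edgeR adjusted p = 0.104) with all libraries and 1.03 without Nell2-KO replicate 1 (edgeR adjusted p = 4.51e-05). Elf3 overlaps Gm26642, a gene annotated on the opposite strand, with which it shares 5.92% of its 36-base words. The libraries were made with a stranded kit, per the labels' protocols, and these do not state whether the counting used strand.

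The 3 epithelial genes were also compared by their ratios within each library. The log2 ratio of Elf5 to Elf3 averaged -2.09 ± 1.35 in Nell2-KO and -3.63 ± 0.20 in WT, and that of Elf5 to Ehf -4.44 ± 0.51 in Nell2-KO and -5.63 ± 0.50 in WT. Both gave an exact permutation p = 0.0286, the smallest possible, and an adjusted p of 0.05, at the threshold and not under it. The log2 ratio of Ehf to Elf3 averaged 2.349 ± 1.23 in Nell2-KO and 2.003 ± 0.50 in WT (exact permutation p = 0.743, adjusted p = 0.743). Without Nell2-KO replicate 1 the difference of this last ratio was -0.26 in place of 0.35, and that of Elf5 to Elf3 was 0.89 in place of 1.53.

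Ets1 and Ets2 encode a pair of activators that ERK phosphorylates next to their Pointed domain. Ets1 had 19.7, 13.1, 8.08 and 7.01 CPM in Nell2-KO replicates 1 to 4, against 15.3, 26.4, 22.4 and 21.4 CPM in WT replicates 1 to 4. Nell2-KO replicate 1 lay within the WT range and the other 3 below it. The log2 fold change was -1.12 ± 0.30 (SE, edgeR adjusted p = 0.0245), from 14 to 54 reads per library, and without Nell2-KO replicate 1 it was -1.32 (edgeR adjusted p = 0.000495). The call ended without any 1 of 5 libraries, namely Nell2-KO replicates 3 and 4 and WT replicates 2, 3 and 4 (highest edgeR adjusted p 0.125, when Nell2-KO replicate 3 was left out). It also ended after thinning to the smallest total, at a log2 fold change of -0.62 (edgeR adjusted p = 0.6997), and in limma on the authors' RPKM (adjusted p = 0.126).

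Ets2 averaged 72.0 ± 9.10 CPM in Nell2-KO and 62.1 ± 6.69 CPM in WT, and its libraries overlapped. Its log2 fold change was 0.20 with a 95% interval of -0.12 to 0.53 (edgeR adjusted p = 0.435), and -0.01 in limma on the authors' RPKM. The log2 ratio of Ets2 to Ets1 averaged 2.64 ± 0.56 in Nell2-KO and 1.54 ± 0.29 in WT. This difference did not pass the exact permutation test (p = 0.0571, adjusted p = 0.08), and without Nell2-KO replicate 1 it was 1.37 with an adjusted p of 0.0333.

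Ets1, like the ETS genes Erg, Fli1 and Elk3, is known from endothelium, and Ets1 and Fli1 also from lymphocytes. Of 9 endothelial markers tested, 4 fell and 0 rose, while 8.71% of all genes tested were called lower. Pecam1 fell 2.22-fold, Kdr 4.18-fold, Emcn 2.86-fold and Eng 2.59-fold. The other 5, Cdh5, Tek, Tie1, Egfl7 and Vwf, were not called, with log2 fold changes between -1.02 (Tie1) and 0.04 (Egfl7). After all libraries were thinned to the smallest total, the edgeR calls of Pecam1 (adjusted p = 0.438), Kdr (adjusted p = 0.161) and Emcn (adjusted p = 0.545) ended, and the log2 fold change of Emcn was -0.71 in place of -1.52. Eng was not tested after thinning. The calls of Pecam1 (adjusted p = 0.0651) and Eng (adjusted p = 0.213) ended in limma on the authors' RPKM. The summed level of the 9 was 65.2 to 81.7 CPM in Nell2-KO libraries and 119 to 158 CPM in WT libraries, and none of the 9 was at 0. The 7 leukocyte markers summed to 9.16 to 16.9 CPM in Nell2-KO and 8.27 to 13.2 CPM in WT, and 1 of the 7 had enough reads to be tested. The part of endothelial RNA in the value of Ets1 was not tested. In whole tissue, fewer cells of a type and less RNA per cell cannot be told apart.

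Etv6 encodes a repressor of the family. It averaged 49.1 ± 11.0 CPM in Nell2-KO and 63.1 ± 10.8 CPM in WT, with a log2 fold change of -0.41 with an SE of 0.18 (edgeR adjusted p = 0.175). Without Nell2-KO replicate 1, the highest knockout library at 64.8 CPM, it passed the test at -0.53 (edgeR adjusted p = 0.0112). Elk3 encodes a ternary complex factor that binds DNA together with serum response factor. It averaged 21.9 ± 2.35 CPM in Nell2-KO and 27.0 ± 6.38 CPM in WT, with a log2 fold change of -0.35 and a 95% interval of -0.78 to 0.09 (edgeR adjusted p = 0.301). Elk3 overlaps the protein-coding gene Cdk17 on the opposite strand, with which it shares 6.22% of its 36-base words.

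Of the 16 other ETS genes in the table, 7 had enough reads to be tested, of which Erf fell and 0 rose. Erf encodes a repressor that leaves the nucleus when ERK phosphorylates it. It had 7.04 to 17.2 CPM in Nell2-KO, against 35.7 to 41.9 CPM in WT, with no overlap, and fell 2.81-fold (log2 fold change -1.49 ± 0.20, SE, edgeR adjusted p = 0.000317). The call of Erf ended in limma on the authors' RPKM (adjusted p = 0.0826). The 7 had a median log2 fold change of -0.01, against 0.03 over all genes tested, of which 15.0% were called in either direction. The other 6, Elf1, Elf2, Etv3, Elk1, Elk4 and Gabpa, had log2 fold changes between -1.36 (Elk4) and 0.19 (Elk1). Elk4 had 13.3 to 20.3 CPM in Nell2-KO, against 21.1 to 30.2 CPM in 3 WT libraries and 90.1 CPM in WT replicate 2 (edgeR adjusted p = 0.0591). Without WT replicate 2 its log2 fold change was -0.64 (edgeR adjusted p = 0.0854). Elk4 was called lower with DESeq2 (adjusted p = 0.0241), with limma-voom (adjusted p = 0.00919) and with edgeR without WT replicate 1 (adjusted p = 0.0422) or 4 (adjusted p = 0.0482).

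**Figure D3:**
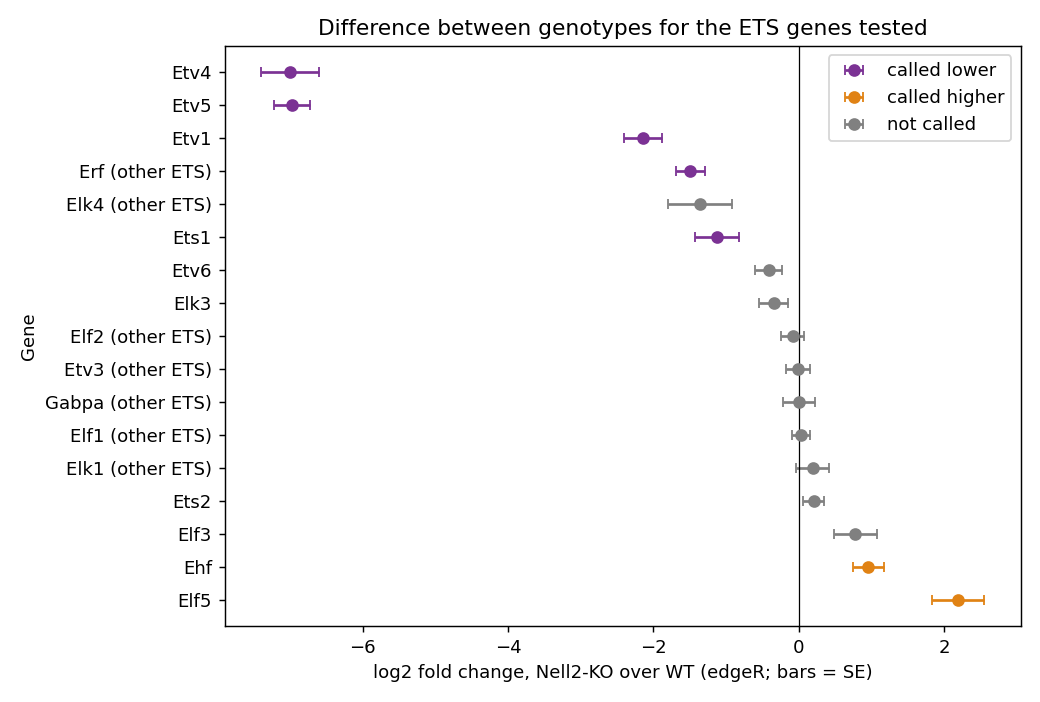
Log2 fold change, Nell2-KO over WT, of the 17 ETS genes tested, with bars of 1 SE from edgeR; purple points were called lower, orange points higher and grey points were not called. Etv4 and Etv5 lie near -7, Etv1 at -2.15, Erf at -1.49 and Ets1 at -1.12, while Ehf lies at 0.96 and Elf5 at 2.19.

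Levels were compared between genes per transcript length, as TPM, the length-scaled share of each library, obtained by rescaling the authors' RPKM to the same sum in each library. In WT, Etv5 had the highest mean level of the 26 ETS genes at 230 TPM, with a range of 215 to 247 TPM that overlapped that of the next gene, Ehf, at 137 to 220 TPM. Elf3 followed at 71.7 to 101 TPM and Elf1 at 44.3 to 56.1 TPM, each without overlap with its neighbour above. Etv1, Etv4, Ets2 and Gabpa came next, at means of 38.4, 37.5, 37.3 and 34.3 TPM. Their ranges overlapped among neighbours and, for Etv1 and Etv4, with that of Elf1. Ets1 stood at place 16 and Elf5 at place 17.

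In Nell2-KO the order began with Ehf at 279 to 455 TPM, then Elf3 at 55.5 to 241 TPM, Elf1 at 49.5 to 59.1 TPM and Ets2 at 37.9 to 55.3 TPM. The ranges of Ehf and Elf3 did not overlap, that of Elf3 overlapped that of Elf1 through Nell2-KO replicate 1, and those of Elf1 and Ets2 overlapped. Elf5 stood at place 6, Etv1 at place 12, Etv5 at place 17 and Etv4 at place 23. The 3 PEA3 genes together made up 2.31%, 1.69%, 1.02% and 1.45% of the summed ETS level in Nell2-KO replicates 1 to 4, against 37.7%, 34.1%, 38.9% and 35.9% in WT replicates 1 to 4. Elf3, Elf5 and Ehf together made up 64.0% to 68.8% in Nell2-KO and 29.8% to 33.5% in WT. The summed ETS level was 693 to 840 TPM in Nell2-KO and 773 to 950 TPM in WT, with overlapping ranges. These shares follow from genes already described and carry no test of their own.

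**Figure D4:**
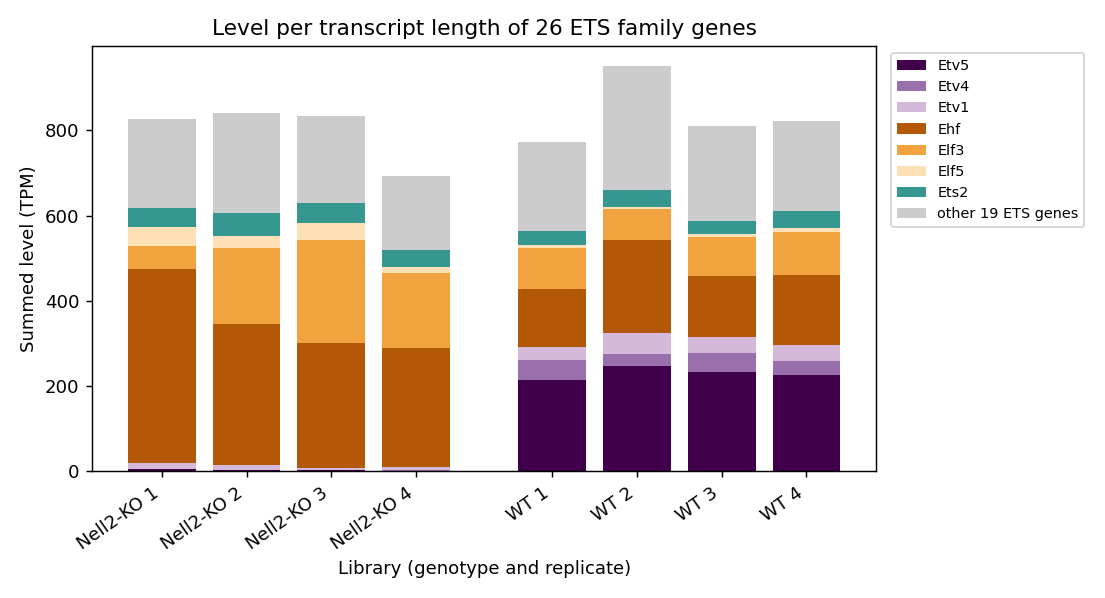
Summed level per transcript length (TPM) of 26 ETS genes in each library, Nell2-KO replicates on the left and WT replicates on the right; colours mark Etv5, Etv4 and Etv1 (purple shades), Ehf, Elf3 and Elf5 (orange shades), Ets2 (teal) and the other 19 genes (grey). The purple blocks make up 34.1% to 38.9% of the WT bars and 1.02% to 2.31% of the Nell2-KO bars.

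The cells in which PEA3 genes are known to be active are the principal cells of the initial segment. Of 6 principal cell markers, 5 fell, with Lcn8, Lcn9 and Cst8 at 30, 12 and 12 reads over the 4 Nell2-KO libraries, against 51520, 51653 and 20692 reads over the 4 WT libraries. Nell2-KO replicate 1 held 13, 11 and 4 of these knockout reads. Gpx5, the marker of the caput beyond the initial segment, averaged 83528 ± 12068 CPM in Nell2-KO and 69427 ± 4752 CPM in WT and did not pass the test (edgeR adjusted p = 0.362). The part of initial segment cells in the fall of the PEA3 genes was not tested. Clear cell markers summed to 287 to 503 CPM in Nell2-KO and 288 to 338 CPM in WT, and 1 of the 3 tested, Foxi1, rose 1.84-fold. The 503 CPM is that of Nell2-KO replicate 1, where Atp6v0d2 had 397 CPM, against 126 to 177 CPM in Nell2-KO replicates 2 to 4. Of 4 basal cell markers, Trp63 and Itga6 fell and 0 rose, and the list summed to 159 to 269 CPM in Nell2-KO and 320 to 367 CPM in WT. Krt5, with 49.0 ± 17.8 CPM in Nell2-KO and 42.1 ± 6.78 CPM in WT, did not pass the test. Nor did Krt14, with 15.1 ± 7.17 CPM in Nell2-KO and 17.6 ± 2.46 CPM in WT. Smooth muscle markers summed to 642 to 836 CPM in Nell2-KO and 1513 to 1799 CPM in WT. Actg2 was the 1 of 6 that passed the test, with 24.4 ± 5.61 CPM in Nell2-KO and 1019 ± 133 CPM in WT. The sums include Actg2, and the other 5 were not called, with log2 fold changes between -0.03 and 0.37. For comparison with these marker counts, 8.71% of all genes tested were called lower and 6.24% higher. The part of clear, basal and smooth muscle cells in the rise of Elf5 and Ehf was not tested.

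Most of the ERK-responsive genes tested fell, as the PEA3 genes did. Of 14 ERK feedback and ERK-responsive genes tested, out of 19 listed, 11 fell and 0 rose, with a median log2 fold change of -1.90 against 0.03 over all genes. The share called lower over all genes tested was 8.71%. The 3 not called were Egr1, Spry2 and Il17rd, with log2 fold changes of -0.63, 0.15 and 0.29. Of the 11, Dusp4, Dusp5, Spry4 and Ier3 met the filter on low counts through WT alone. The list was also chosen with earlier results of these data known. For both reasons the count and the median are a description. Dusp6, the phosphatase that acts on ERK in the cytoplasm, had 15.8 ± 3.53 CPM in Nell2-KO and 291 ± 24.9 CPM in WT. Shc4, an adaptor that binds receptor tyrosine kinases, had 2.76 ± 1.48 CPM in Nell2-KO and 136 ± 11.2 CPM in WT. Spred1, a membrane-bound inhibitor of the pathway, fell 4.11-fold, and Ier3, an early response gene, fell 6.52-fold. Mapk3, which encodes an ERK kinase, averaged 36.3 ± 11.1 CPM in Nell2-KO and 35.1 ± 3.34 CPM in WT and did not pass the test.

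Of 17 receptor and signalling genes listed for ERK in the initial segment, 15 were tested, 2 fell and 0 rose, with a median log2 fold change of 0.13. This count lies near the 15.0% of all genes tested that were called in either direction (8.71% lower). Ros1 fell to 255 to 400 CPM in Nell2-KO, against 580 to 746 CPM in WT, a log2 fold change of -1.06 with an SE of 0.17 (edgeR adjusted p = 0.000953). Met, the receptor of hepatocyte growth factor, fell 3.46-fold (log2 fold change -1.79 ± 0.21, SE, edgeR adjusted p = 9.94e-05). The call of Ros1 ended in limma on the authors' RPKM (adjusted p = 0.0581).

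Of 17 tested genes that regulate PEA3 genes or proteins, 3 fell and 0 rose, with a median log2 fold change of -0.08. Here too the count is near the share over all genes tested, 15.0% called in either direction and 8.71% lower. The 3 were Cic, Atxn1 and Trib1. Cic had 16.9, 25.4, 38.4 and 31.4 CPM in Nell2-KO replicates 1 to 4, against 72.1, 84.2, 56.9 and 67.1 CPM in WT replicates 1 to 4, and fell 2.32-fold (edgeR adjusted p = 0.00184). Its groups did not overlap, and its call ended in limma on the authors' RPKM (adjusted p = 0.149). Atxn1, which encodes the ataxin that binds Capicua, fell 3.75-fold, with 14.7 ± 1.51 CPM in Nell2-KO and 54.3 ± 22.8 CPM in WT. Trib1, an adaptor of the ubiquitin ligase COP1, fell 2.48-fold, and its call ended after thinning (edgeR adjusted p = 0.0762). COP1, which marks PEA3 proteins for breakdown, is encoded by a gene listed as Rfwd2, which averaged 68.9 ± 5.78 CPM in Nell2-KO and 59.1 ± 7.29 CPM in WT and did not pass the test (edgeR adjusted p = 0.333).

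Of 15 tested DNA-binding partners of ETS factors, 5 fell and 1 rose, with a median log2 fold change of -0.15. Among all genes tested, 8.71% were called lower and 6.24% higher. Runx2, a runt-domain factor that binds beside ETS proteins on composite sites, had 1, 1, 1 and 1 reads in Nell2-KO replicates 1 to 4, against 341, 420, 351 and 290 reads in WT replicates 1 to 4. In CPM this was 0.152 to 1.41 in Nell2-KO, against 132 to 206 in WT (log2 fold change -8.92 ± 0.37, SE, edgeR adjusted p = 1.92e-08), a size that rests on 4 knockout reads. Runx2 met the filter on low counts through WT alone, so that the count of 5 and the list median are a description. Cbfb, the common partner subunit of runt-domain factors, fell 2.32-fold, with 80.9 ± 17.5 CPM in Nell2-KO and 185 ± 16.0 CPM in WT. Runx1 and Pax8 also fell, by 2.30-fold and 1.76-fold, and Runx1 is named after its values were seen. The gene that rose was Fosl2, an AP-1 subunit, with 68.7 ± 19.6 CPM in Nell2-KO and 30.5 ± 7.92 CPM in WT. The calls of Pax8 and Fosl2 ended when libraries were thinned to the smallest total and in limma on the authors' RPKM.

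**Figure D5:**
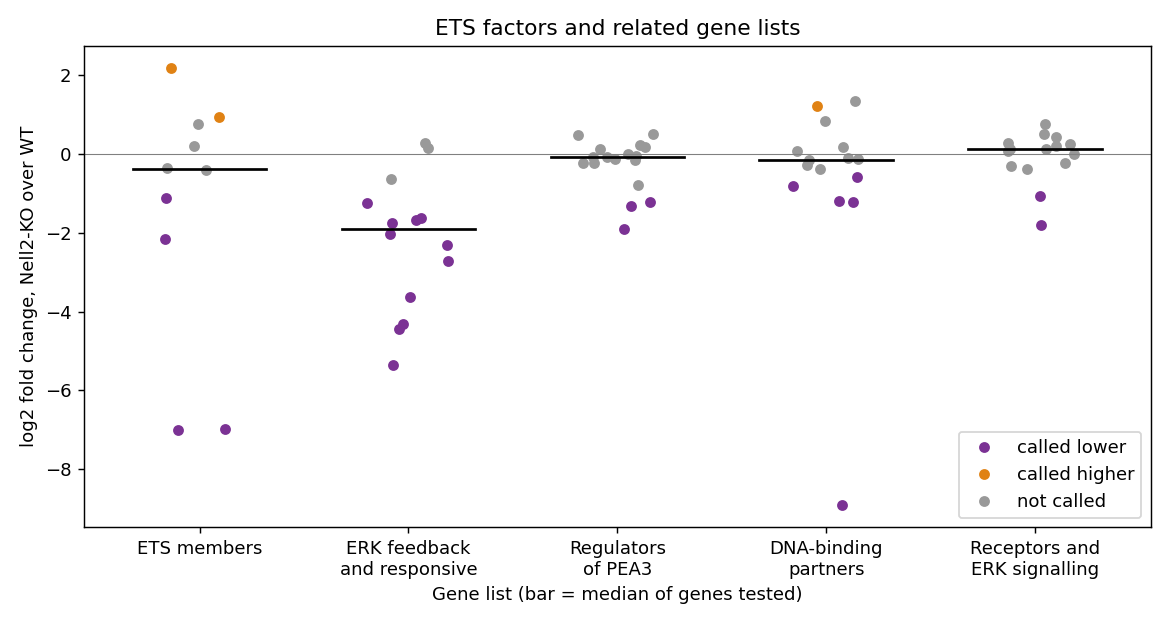
Log2 fold change, Nell2-KO over WT, of the genes tested in 5 lists; each point is a gene, purple if called lower, orange if called higher and grey if not called, and bars are list medians. The ERK-responsive genes have a median of -1.90, while the medians of the receptors and signalling genes, of the regulators of PEA3 and of the DNA-binding partners lie between -0.15 and 0.13.

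Over the 8 libraries, the genes whose log2 levels were most like those of Etv5 were Cst12, Rnase10, Emb, Lcn8 and Ovch2, with Pearson's r between 0.997 and 0.999 among 5383 genes of at least the median level. Their mean levels lay between 0.352 CPM (Cst12) and 59.8 CPM (Ovch2) in Nell2-KO, and between 381 CPM (Emb) and 7771 CPM (Rnase10) in WT. Emb, which encodes embigin, had 11.9 CPM in Nell2-KO and 381 CPM in WT. The genes most like Elf5 were Prex2, Mospd1, Lcn12, Dab2 and Spock1, with r between 0.977 and 0.987. Dab2, which encodes an adaptor of endocytosis, had 2026 CPM in Nell2-KO and 756 CPM in WT. The 8 points fall into 2 genotypes, and the genes share library and depth, so that these values describe likeness across the genotypes and carry no test.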

How the data were processed

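RNA from flash frozen caput was purified on columns, amplified in 1 linear round and made into stranded mRNA libraries read as single 36-base reads, per the labels' protocols. Base calling with CASAVA 1.8.2, read checks with FastQC 0.11.2 and alignment with Bowtie2 2.2.0 to mm10 are named in the submitters' processing notes. The counting tool, annotation, strand setting and treatment of multiply mapped reads are named in none of these sources. The deposited table holds raw read counts per gene and, beside them, the authors' RPKM values, with no transformation applied before deposit that the table records.

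The test on counts was that of edgeR 4.0.16 under R 4.3.3 (filterByExpr, TMM, robust quasi-likelihood F test, no covariates, 4 Nell2-KO against 4 WT), with Benjamini-Hochberg adjustment over 11062 genes, and the fit was tested on simulated data. CPM are counts over the library total times its TMM factor. The share of reads in genes was inferred per library from the median ratio of counts to the authors' RPKM. Reads outside genes were not counted. TPM are the authors' RPKM rescaled per library, and ratios of genes used a pseudocount of 0.5 CPM. Intervals cover 95%, and floors of 3 counts cover counting error only. The fit on RPKM used limma 3.58.1 on log2(RPKM + 0.1) for genes with a mean RPKM of at least 0.1, and DESeq2 1.42.0 was an alternative. No 2 libraries agreed within sampling noise, and all were counted separately. All 10 ETS genes were named, with called genes of the other ETS list and up to 4 called genes per further list by smallest adjusted p. Other ETS genes that were not called, Runx1, Rfwd2, Mapk3, Gpx5, the genes that met the filter through WT alone and the neighbours of Ehf and Elf5 were named outside this rule, after their values were seen. The same holds for Krt5, Krt14, Atp6v0d2, Egr1, Spry2, Il17rd and the 5 endothelial markers that were not called. For likeness, the 5 genes with the highest r to Etv5 and to Elf5 were named. Members and lists were chosen with earlier results of these data known. Columns of the authors' own fold changes and tests were not used here. Some genes of the lists are counted but not reported here by name.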

Additional observations from a re-analysis of the deposited data

Results flagged for a closer look

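In 4 of 48 groups of 4 libraries tested, 1 library lay far from the other 3 by Dixon's test, and chance gives about 1 in 20 groups. Etv5 stood at 8.45 CPM in Nell2-KO replicate 1, where the other 3 Nell2-KO libraries had 2.69 to 2.91 CPM. Ehf stood at 962 CPM in Nell2-KO replicate 1, where the other 3 Nell2-KO libraries had 545 to 607 CPM. Gabpa, an ETS factor of widely expressed genes, stood at 125 CPM in Nell2-KO replicate 1, where the other 3 Nell2-KO libraries had 65.2 to 73.4 CPM. Elk4 stood at 90.1 CPM in WT replicate 2, where the other 3 WT libraries had 21.1 to 30.2 CPM. In 3 of the 4 cases the library was Nell2-KO replicate 1, whose total was 801112 counts. The part of its depth and gene share in these values was not tested.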

How the results depend on the processing

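Etv1, Etv4 and Etv5 were called lower under all 17 alternatives, with log2 fold changes of -2.40 to -1.89, -8.15 to -6.26 and -7.16 to -6.04, and Elf5 was called higher under the 16 that tested it. Counts of genes called higher and lower were 1596 and 1863 with limma-voom, 1391 and 1694 without Nell2-KO replicate 1 and WT replicate 2, 156 and 346 after thinning, and 52 and 484 with limma on RPKM. With voom, Etv6 (-0.48) and Elf3 (0.98) passed the test, as they did without those 2 libraries (-0.46 and 0.92). After thinning 1 of the 10 ETS genes was called higher, Ehf, since Elf5 was not tested, and Ets1 was not called (-0.62, adjusted p = 0.6997). With limma on RPKM 1 was called higher, Elf5, while Ets1 (-1.09) and Ehf (0.72) were not called, and Ets2 (-0.0082), Elk1 (-0.16), Gabpa (-0.21) and Elf1 (-0.18) turned sign, with the median of all genes at -0.20. Gabpa also turned with voom (-0.15), without filter (-0.020), without the 2 libraries (-0.14), after thinning (-0.22) and with the replicate block (-0.0073), as did Etv3 with voom (0.042) and the stricter filter (0.0016). With a pseudocount of 0.1 the difference for Etv5 to Etv4 was 0.85. The cause of these changes was not tested.

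Between libraries of the same replicate number, deviations of log2 levels from the genotype mean had correlations of -0.27 to 0.17. Other pairings were not compared, so that these values do not settle whether the numbers pair libraries. With the replicate block 436 genes were called higher, Ets1 was not called (-1.05, adjusted p = 0.0786), and Elk4 was called lower (-1.13, adjusted p = 0.0416), as it was without Nell2-KO replicate 1 and WT replicate 2 (-0.66, adjusted p = 0.0101).

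With 1 library left out at a time, 443 to 1301 genes were called higher and 748 to 1485 lower, the highest counts both without Nell2-KO replicate 1 and the lowest of those higher without WT replicate 1. Without WT replicate 3, 456 were called higher. Log2 fold changes ran from -0.53 to -0.32 for Etv6, 0.55 to 1.03 for Elf3, -1.32 to -0.89 for Ets1, -0.10 to 0.093 for Etv3, -0.21 to 0.10 for Gabpa and -0.0093 to 0.077 for Elf1. The differences in log2 ratio ran from -4.31 to -3.64 for Etv4 to Etv1, -4.74 to -4.42 for Etv5 to Etv1, -1.10 to -0.34 for Etv5 to Etv4, 0.96 to 1.37 for Ets2 to Ets1, 0.89 to 1.93 for Elf5 to Elf3, -0.26 to 0.66 for Ehf to Elf3 and 0.95 to 1.40 for Elf5 to Ehf. At the smallest depth Elf5 was not tested and Ets1 was not called, and Etv4 and Runx2 had 4 Nell2-KO reads each.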

Other observations

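Ehf and Elf5, the ETS genes that rose, are neighbours on chromosome 2 of mm10, with 108409 bases and 0 protein-coding genes between them (Ehf at 103263433 to 103303278 on the minus strand, Elf5 at 103411688 to 103450989 on the plus strand). The genes around them, chosen after their values were seen, included Cd44, Pdhx, Apip, Cat, Nat10 and Caprin1 within 500 kilobases, and none of these 6 passed the edgeR test. Slc1a2 and Abtb2, also within that distance, had too few reads to be tested. The largest change among them was that of Cat, which encodes catalase, with 98.3 CPM in Nell2-KO and 48.0 CPM in WT (log2 fold change 0.87, edgeR adjusted p = 0.362).

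Spdef, an ETS gene of secretory epithelia, had too few reads to be tested. It had 44 reads over the 4 Nell2-KO libraries and 6 reads over the 4 WT libraries, and its range was 1.60 to 7.63 TPM in Nell2-KO and 0 to 1.67 TPM in WT.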
